A study of Mus musculus with 6 samples.

Results

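The Wnt genes described here are the secreted Wnt ligands, their Frizzled receptors and Lrp5/Lrp6 co-receptors, and the secreted inhibitors of the Sfrp, Dkk and Wif families. They were chosen by gene name, with earlier results of these data known. The rule took every gene of the count tables whose symbol starts with Wnt, Fzd, Sfrp or Dkk and a digit, plus Lrp5, Lrp6, Frzb and Wif1. This gave 41 of 34745 genes, of which 19 were ligands, 12 receptors or co-receptors and 10 inhibitors. Their expression was measured in 3 WT and 3 SAKI mice, by RNA-seq of the inguinal fat under the skin, called IngWAT (inguinal white adipose tissue). SAKI mice carry an LSL-Slc35d3 transgene, in which a stop cassette keeps Slc35d3 silent, and adiponectin-Cre, which removes the cassette in adipocytes. The WT mice carry the same transgene allele without Cre, so the groups differ in Cre as well as in Slc35d3. All 6 mice were C57BL/6 males put on normal chow (10 kcal% fat) at 6 weeks of age and kept on it for 10 weeks, to an age of 16 weeks, and the labels record a PBS perfusion for the samples of each genotype.

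Wnt proteins are lipid-modified ligands that bind a Frizzled receptor. In the canonical branch the ligand also binds Lrp5 or Lrp6, which stops the destruction of beta-catenin and lets it activate genes with TCF/LEF factors. In the other branches, Frizzled receptors act through planar polarity proteins or calcium. Sfrp, Frzb and Wif1 proteins bind the ligands themselves, whereas Dkk proteins of the Dkk1, Dkk2 and Dkk4 type block Lrp5 and Lrp6. In fat, canonical Wnt signaling is known for holding preadipocytes back from differentiation, and many of the ligands and inhibitors are made by stromal cells and adipocyte progenitors.

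The WT libraries were not alike. On the first principal component (46.8% of the variance) WT 1 and WT 3 lay at -43.3 and -61.7, while WT 2 lay at 27.8, beside the SAKI libraries at 21.0 to 30.2. Mitochondrial genes took 7.31% (WT 1) and 8.78% (WT 3) of the counts, but 13.8% of those of WT 2 and 13.1% to 15.9% of those of SAKI mice. The libraries held 15354161 to 18787036 counts, so 3 counts, the limit taken for a gene with no count, amount to 0.155 to 0.196 CPM (counts scaled to the library total and by TMM factors). Such limits cover counting error only. Slc35d3 stood at 76.6 ± 4.79 CPM in WT and 769.6 ± 24.0 CPM in SAKI mice (SD, n = 3 each), with WT 2 at 82.1 CPM among the WT mice, so the labels of all 6 libraries matched the targeted gene (log2 fold change 3.33, SE 0.12, adjusted p = 0.000244 by edgeR). Markers of mature adipocytes were high in every library, at a sum of 31765 to 45405 CPM over 15 genes.

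No Wnt ligand, receptor or inhibitor passed an adjusted p of 0.05 in SAKI against WT mice. Of the 41 genes, 28 were expressed enough to be tested, and 13 were not. Over all 15400 genes tested with edgeR's quasi-likelihood test, 5 passed, which is 0.0325%. At an unadjusted p under 0.05, 4 of the 28 were lower in SAKI mice (Wnt6, Fzd1, Fzd5 and Frzb) and 0 were higher, where 9.99% of all genes tested were lower and 8.36% higher at the same limit. Without overlap between the groups, 5 of the 28 lay lower in every SAKI mouse than in any WT mouse (Wnt6, Lrp5, Fzd1, Fzd7 and Fzd5), beside 12.4% of all genes, and 0 lay higher in every SAKI mouse, beside 13% of all genes. Both these counts and those of all genes depended on single libraries. Without WT 2, 12 members were at an unadjusted p under 0.05 (35.2% of all genes), 7 higher (17% of all genes) and 5 lower (18.1%). The count was 2 without WT 1 (15.8% of all genes) or SAKI 3 (10.1%) and 1 without SAKI 1 (12.2%) or SAKI 2 (10.2%). Without WT 3, Sfrp5, Fzd5, Fzd7, Fzd1, Lrp5 and Fzd10 were under this limit, all lower in SAKI mice. The share of all genes in that fit is not given here. Without overlap there were 17 members without WT 2 (52.7% of all genes) and 8 without WT 3 (31.6%) or SAKI 3 (32.8%). In FPKM, which carry no TMM factors, Lrp5, Fzd1 and Fzd7 overlapped between the groups and Lrp6 lay higher in every SAKI mouse, while Wnt6 and Fzd5 still lay lower. DESeq2 called 1 member, Fzd5, lower, where it called 3.02% of the 22518 genes with a count in either direction and 1.74% lower. The median log2 fold change was -0.01 over the tested members and -0.004 over all genes tested, and 13 members lay above 0 and 15 below. The median differed by role: it was -0.001 for the 9 tested ligands, -0.34 for the 11 receptors and co-receptors and 0.58 for the 8 inhibitors.

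**Figure D1:**
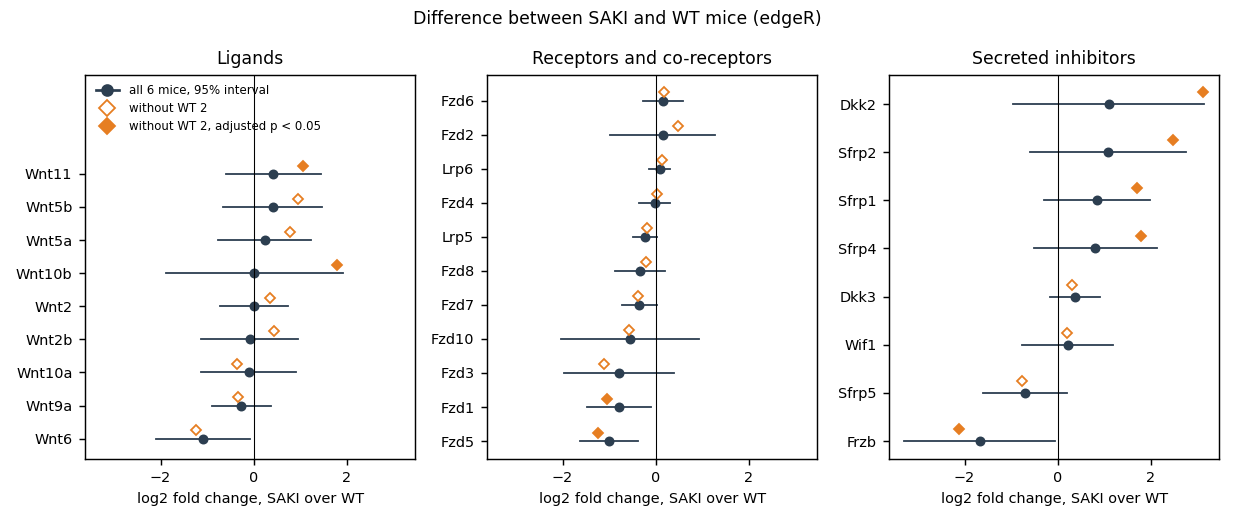
Fitted log2 fold change of SAKI over WT for the 28 tested members, by role. Dark points and bars give the estimate and 95% confidence interval over all 6 mice, and diamonds give the estimate without WT 2, filled where the adjusted p was under 0.05. The intervals of Wnt6, Fzd1, Fzd5 and Frzb lie below 0 before adjustment, and without WT 2 the estimates of Dkk2, Sfrp2, Sfrp1 and Sfrp4 move to between 1.69 and 3.13.

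Per gene length, receptors were the most abundant role in IngWAT and ligands the least. In FPKM (counts scaled to the gene's length and to the library's total), the 12 receptors and co-receptors summed to 130.3 ± 18.2 (SD, n = 3) in WT and 118.6 ± 9.57 (SD, n = 3) in SAKI mice. The 10 inhibitors summed to 32.4 ± 17.6 (SD, n = 3) and 43.6 ± 1.19 (SD, n = 3), and the 19 ligands to 7.28 ± 3.07 (SD, n = 3) and 7.44 ± 0.414 (SD, n = 3). For each role the sums of the groups overlapped. The inhibitor sum divided by the ligand sum was 5.04, 4.62 and 3.09 in WT 1 to 3 and 5.72, 6.37 and 5.55 in SAKI 1 to 3, so this ratio was higher in every SAKI mouse than in any WT mouse, WT 2 included. The ratio was formed after the level sums had been seen and has no test.

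**Figure D2:**
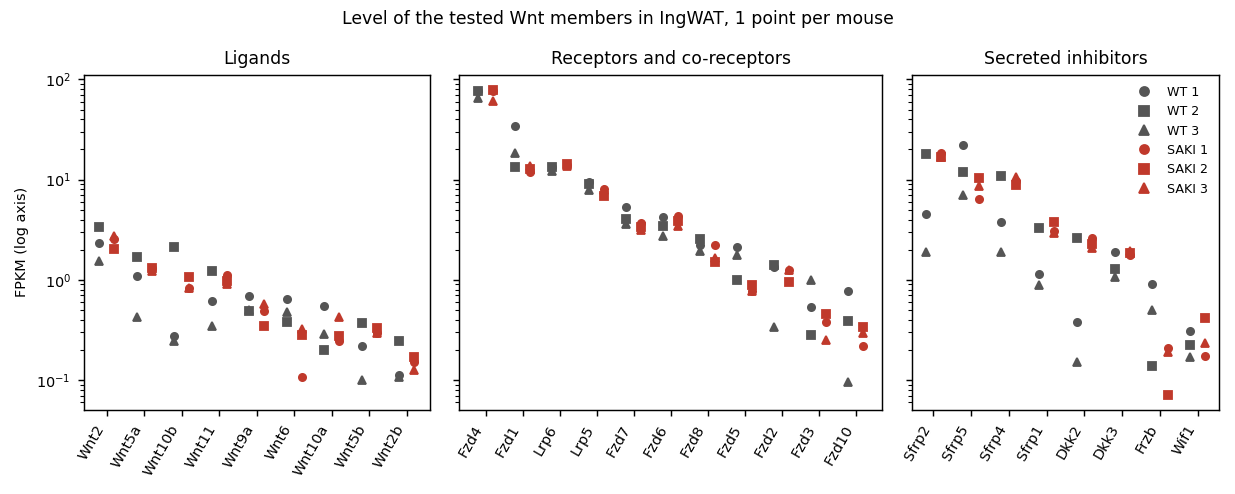
FPKM (log axis) of the 28 tested members in each of 3 WT (grey) and 3 SAKI (red) mice, ordered within each role by the mean over the 6 mice. Fzd4 lies highest at 61.5 to 78.8 FPKM, and the square of WT 2 lies with the SAKI mice for Sfrp2, Sfrp4, Sfrp1 and Dkk2.

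Among the ligands, Wnt2 and Wnt5a had the highest levels, and the remaining ligands ran down to no count at all. Wnt2, a ligand of the canonical branch, stood at 2.40 ± 0.916 FPKM (SD, n = 3) in WT and 2.43 ± 0.369 FPKM (SD, n = 3) in SAKI mice, which was 33.3% and 32.6% of the ligand sum. Wnt5a, the best known ligand of the branches without beta-catenin, followed at 1.07 ± 0.632 and 1.28 ± 0.0384 FPKM (SD, n = 3 each). Wnt10b, Wnt11, Wnt9a, Wnt6, Wnt10a, Wnt5b and Wnt2b came next in the mean over all mice, and the range of each over the mice overlapped the next. Compared within each mouse, Wnt9a lay above Wnt6 in every mouse. The other steps did not hold in every mouse, so these mice do not resolve the rest of the order.

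Wnt2 read 4.97, 7.78 and 3.60 CPM in WT 1 to 3 and 5.80, 4.53 and 6.00 CPM in SAKI 1 to 3, and the groups overlapped (log2 fold change -0.001, SE 0.31, adjusted p = 0.999 by edgeR). Its 95% interval, from -0.73 to 0.73, still holds changes of either sign. Wnt5a read 12.9, 21.9 and 5.63 CPM in WT and 16.6, 16.2 and 15.04 CPM in SAKI mice, so the SAKI mice were alike while the WT mice spread on either side of them (log2 fold change 0.24, SE 0.42, adjusted p = 0.782 by edgeR). Wnt6, a ligand that holds back adipocyte differentiation, was the only tested ligand without overlap. It read 1.84, 1.17 and 1.51 CPM in WT and 0.326, 0.841 and 0.930 CPM in SAKI mice, from 18 to 30 reads in a WT library and 5 to 18 in a SAKI library (log2 fold change -1.08, SE 0.43, adjusted p = 0.256 by edgeR). Wnt6 lies on chr1:74771892-74785322, plus strand, 6193 bases before Wnt10a, the next Wnt gene on that strand, and it overlaps the predicted gene Gm29539 on the other strand. Wnt10a was at 0.969 ± 0.456 CPM in WT and 0.894 ± 0.257 CPM in SAKI mice (SD, n = 3 each), and its log2 fold change of -0.11 had a 95% interval from -1.13 to 0.92.

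Wnt10b, the ligand best known for blocking adipogenesis, had the largest standard error of the tested ligands. It was at 0.798, 6.68 and 0.786 CPM in WT 1 to 3 and at 2.61, 3.23 and 2.48 CPM in SAKI 1 to 3. All SAKI mice therefore lay above WT 1 and WT 3 and below WT 2 (log2 fold change 0.01, SE 0.81, adjusted p = 0.995 by edgeR). Wnt11, a ligand of the branches without beta-catenin, followed the same order of mice, with 3.87, 8.43 and 2.42 CPM in WT and 7.56, 6.40 and 5.79 CPM in SAKI mice (log2 fold change 0.42, SE 0.43, adjusted p = 0.621 by edgeR). Wnt5b, a relative of Wnt5a, had a mean of 1.298 ± 0.784 CPM in WT and 1.72 ± 0.139 CPM in SAKI mice (SD, n = 3 each), and Wnt9a was at 3.60 ± 0.547 and 2.99 ± 0.707 CPM (SD, n = 3 each). Neither passed the test, and the groups overlapped for each. Wnt2b, tested at a mean of 0.707 CPM, had a log2 fold change of -0.09.

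The other 10 ligands were at or near the limit of detection. Wnt9b, Wnt4 and Wnt8b had 33 to 35 reads in all 6 libraries together, Wnt16 had 19, Wnt3 had 11, Wnt7b had 7 and Wnt1 had 5. Wnt7a, Wnt3a and Wnt8a had no read in any library, which allows up to 0.155 to 0.196 CPM in a library. Of these, Wnt8b lay lower in every SAKI mouse, at 0.430, 0.389 and 0.589 CPM (6 to 9 reads) in WT and 0.261, 0.129 and 0.258 CPM (2 to 5 reads) in SAKI mice. Without the filter on low counts its log2 fold change was -1.08 (SE 0.58, adjusted p = 0.444 by edgeR), and limma on FPKM values without a filter gave an adjusted p = 0.337. It is named after its values were seen.

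The receptors were led by Fzd4, and 8 of the 11 tested receptors and co-receptors had a log2 fold change below 0. Fzd4, a Frizzled receptor that is also found on vessel cells, made up 56.1% of the receptor sum of FPKM in WT and 60.9% in SAKI mice, with 72.7 ± 6.48 and 72.5 ± 9.57 FPKM (SD, n = 3 each). Every mouse had more Fzd4 per length than Fzd1, the next receptor. In CPM, Fzd4 read 270.3, 288 and 251 CPM in WT and 289, 288 and 220.0 CPM in SAKI mice (log2 fold change -0.02, SE 0.14, adjusted p = 0.943 by edgeR), and the 95% interval from -0.36 to 0.31 bounds the change that these mice allow. Fzd1 and Lrp6 came next by length and overlapped, and Lrp6 lay above Lrp5, and Lrp5 above Fzd7, in every mouse. Fzd7 and Fzd6 overlapped and Fzd6 lay above Fzd8, while Fzd8, Fzd5, Fzd2, Fzd3, Fzd10 and Fzd9, in this order, each overlapped the next. Compared within each mouse, Fzd8 lay above Fzd5 in every mouse, and the steps below Fzd5 did not hold in every mouse.

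Fzd5 had the smallest p of the members. This receptor, which serves the canonical branch, read 19.7, 9.99 and 18.0 CPM in WT 1 to 3 and 7.76, 8.60 and 7.39 CPM in SAKI 1 to 3. Every SAKI mouse was below every WT mouse, and WT 2 lay close to the SAKI mice. The log2 fold change was -1.01 (SE 0.26, adjusted p = 0.178 by edgeR), with a 95% interval from -1.63 to -0.38. DESeq2 called it (log2 fold change -1.02, adjusted p = 0.0200). Fzd5 lies on chr1:64730558-64737751 of GRCm38, minus strand, and overlaps the predicted gene Gm38058 on the other strand, and since the strand setting of the counting is not given, reads of the pair cannot be told apart.

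Fzd1 read 137, 57.2 and 81.8 CPM in WT and 50.5, 53.4 and 55.5 CPM in SAKI mice. The SAKI mice lay just below WT 2, and WT 1 stood far above the rest (log2 fold change -0.79, SE 0.29, adjusted p = 0.239 by edgeR). Fzd7, a receptor expressed in many stem and progenitor cells, read 23.0, 18.9 and 17.02 CPM in WT and 17.01, 15.2 and 14.0 CPM in SAKI mice, so the lowest WT mouse and the highest SAKI mouse were all but equal (log2 fold change -0.35, SE 0.16, adjusted p = 0.291 by edgeR). The co-receptor Lrp5 read 107, 111 and 97.9 CPM in WT and 96.9, 81.7 and 90.6 CPM in SAKI mice (log2 fold change -0.23, SE 0.11, adjusted p = 0.304 by edgeR). For Lrp5 the groups did not overlap either, and here WT 2 was the highest of the WT mice. Its partner Lrp6 read 198, 214 and 200.3 CPM in WT and 220.1, 222 and 209 CPM in SAKI mice, with a log2 fold change of 0.09 (SE 0.10, adjusted p = 0.649 by edgeR).

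**Figure D3:**
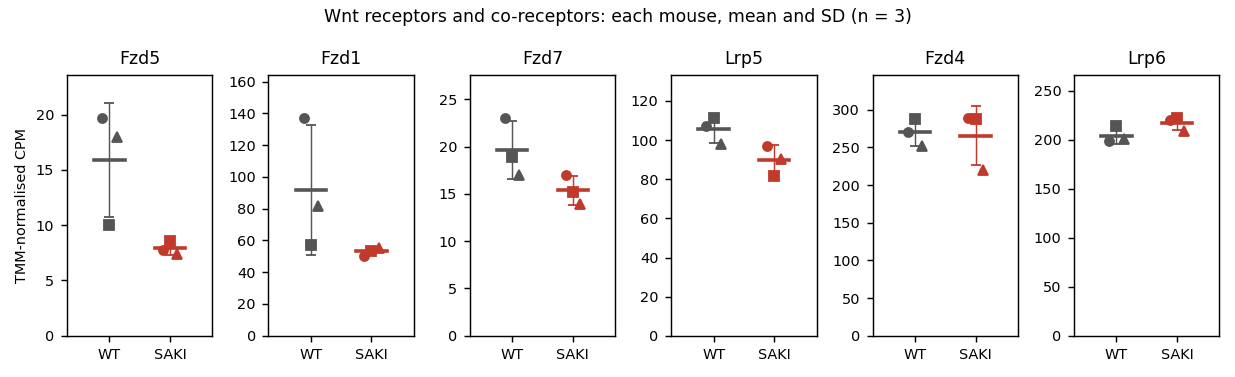
TMM-normalised CPM of 6 receptors and co-receptors in 3 WT (grey) and 3 SAKI (red) mice, 1 point per mouse (circle, square and triangle for mouse 1, 2 and 3), with the mean as a line and the SD as a bar. Fzd5, Fzd1, Fzd7 and Lrp5 do not overlap between groups, and Fzd4 and Lrp6 do.

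The other receptors overlapped between groups. Fzd8 was at 7.58 ± 1.14 CPM in WT and 5.99 ± 1.37 CPM in SAKI mice, Fzd6 at 14.7 ± 2.43 and 16.4 ± 2.32 CPM, and Fzd2 at 3.78 ± 2.16 and 4.21 ± 0.681 CPM (SD, n = 3 each). Fzd3, which is best known for planar polarity, was at 2.74 ± 1.72 and 1.60 ± 0.468 CPM, and Fzd10 at 1.34 ± 1.03 and 0.916 ± 0.192 CPM (SD, n = 3 each). Fzd9 had 27 reads in all libraries together and was not tested.

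The order of the secreted inhibitors by level was not the same in the groups, although no single inhibitor passed the test. In WT mice the highest by length was Sfrp5, an inhibitor made by adipocytes, at 13.8 ± 7.85 FPKM (SD, n = 3) and 46.6% of the inhibitor sum. In SAKI mice the highest was Sfrp2, an inhibitor made by stromal cells, at 17.5 ± 0.895 FPKM (SD, n = 3) and 40.1% of the sum, and Sfrp5 took 19.3% with 8.47 ± 2.07 FPKM (SD, n = 3). WT 2 had the order of the SAKI mice, with Sfrp2 at 37.2% and Sfrp5 at 24.8% of its inhibitor sum, whereas Sfrp5 took 63.4% in WT 1 and 51.4% in WT 3. Sfrp5 read 40.5, 23.5 and 13.8 CPM in WT and 12.3, 19.8 and 15.8 CPM in SAKI mice, and the groups overlapped (log2 fold change -0.70, SE 0.38, adjusted p = 0.362 by edgeR).

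Sfrp2, Sfrp4, Sfrp1 and Dkk2 shared a single order of mice: WT 1 and WT 3 low, WT 2 and all SAKI mice high. They are given mouse by mouse because of that pattern, which was noticed in the values. Sfrp2 read 12.1, 52.3 and 5.56 CPM in WT 1 to 3 and 53.1, 47.5 and 46.6 CPM in SAKI 1 to 3 (log2 fold change 1.07, SE 0.71, adjusted p = 0.445 by edgeR). Sfrp4 read 6.32, 19.5 and 3.47 CPM in WT and 17.4, 15.5 and 18.2 CPM in SAKI mice (log2 fold change 0.80, SE 0.56, adjusted p = 0.464 by edgeR). For Sfrp1, WT mice were at 4.72, 14.98 and 4.06 CPM and SAKI mice at 13.6, 16.6 and 12.5 CPM (log2 fold change 0.84, SE 0.49, adjusted p = 0.386 by edgeR). Dkk2, which blocks Lrp5 and Lrp6, had the largest standard error of the 4, with 1.35, 10.05 and 0.589 CPM in WT and 9.78, 8.47 and 7.44 CPM in SAKI mice (log2 fold change 1.10, SE 0.87, adjusted p = 0.519 by edgeR). For each of these 4 genes WT 2 stood inside or above the range of the SAKI mice.

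Frzb, another secreted Frizzled-related protein, went the other way. It read 3.13, 0.519 and 1.90 CPM in WT and 0.782, 0.259 and 0.672 CPM in SAKI mice, from 4 to 51 reads in a library, and WT 2 lay inside the SAKI range (log2 fold change -1.68, SE 0.69, adjusted p = 0.265 by edgeR). Dkk3, a Dickkopf relative that does not act on Lrp5 and Lrp6 in the same way, was at 4.78 ± 1.21 CPM in WT and 6.17 ± 0.158 CPM in SAKI mice (SD, n = 3 each). Wif1, which binds Wnt ligands directly, was at 1.12 ± 0.281 and 1.31 ± 0.611 CPM (SD, n = 3 each). Dkk1 had 1 read in all libraries together and Dkk4 had none.

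**Figure D4:**
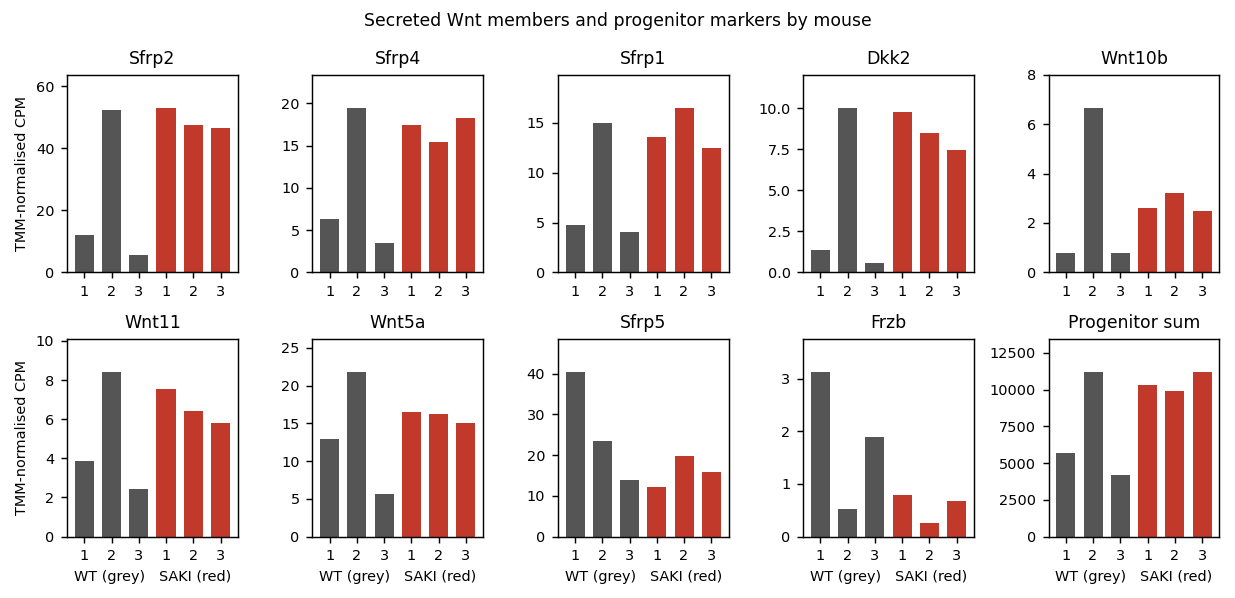
TMM-normalised CPM of 9 secreted members in each mouse, with the summed CPM of 18 fibroblast and progenitor markers in the last panel. Bars start at 0, WT mice 1 to 3 are grey and SAKI mice 1 to 3 red. For Sfrp2, Sfrp4, Sfrp1 and Dkk2, WT 2 is as high as the SAKI mice, as it is for the marker sum at 11219 CPM.

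Across the tested members, WT 2 was nearer to every SAKI mouse than to WT 1 or WT 3 on the log2 CPM scale for 15 of 28 (53.6%), against 31.1% of all genes tested. With WT 2 left out, 9 of the 28 members passed the adjusted p of 0.05, where 16.6% of all 15693 genes then tested did. The 6 that were higher in SAKI mice, where 7.41% of all genes were called higher, were Dkk2 (log2 fold change 3.13, adjusted p = 0.00686), Sfrp2 (2.47, adjusted p = 0.00779), Wnt10b (1.80, adjusted p = 0.0161), Sfrp4 (1.80, adjusted p = 0.0118), Sfrp1 (1.69, adjusted p = 0.00668) and Wnt11 (1.06, adjusted p = 0.0456), all by edgeR. The 3 that were lower, where 9.14% of all genes were called lower, were Fzd5 (-1.25, adjusted p = 0.00594), Fzd1 (-1.04, adjusted p = 0.0243) and Frzb (-2.11, adjusted p = 0.0330), also by edgeR. No member was called when any of the other 5 libraries was left out instead. Which of the WT libraries are typical of WT mice cannot be told from 3 of them.

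Summed markers of fibroblasts and progenitors divided the mice as these inhibitors did, but the single markers did not all do so. The markers of fibroblasts and progenitors, 18 genes of which all 18 were detected, summed to 5662, 11219 and 4183 CPM in WT 1 to 3 and to 10332, 9912 and 11193 CPM in SAKI 1 to 3, with WT 1 and WT 3 low and the other mice high, as for Sfrp2. The collagen gene Col3a1 made up much of the sum, with 2131, 5139 and 1523 CPM in WT and 5027, 4908 and 5663 CPM in SAKI mice. By gene, 11 of the 18 had a log2 fold change above 0 and 7 below, and the 3 at an unadjusted p under 0.05 were lower in SAKI mice, namely Pdgfrb (-0.66), F3 (-0.79) and Bmper (-0.64). Macrophage markers, 11 genes, summed to 1310, 2437 and 1063 CPM in WT and 2466, 2638 and 2971 CPM in SAKI mice. Whether these cells were the source of the inhibitor reads was not tested, and in whole tissue fewer cells of a type and less RNA per cell cannot be told apart. With the mean log2 CPM of the progenitor markers as a covariate, 0 members passed. The log2 fold change was then 0.61 for Sfrp2 (SE 0.13, adjusted p = 0.147 by edgeR) and 0.71 for Dkk2 (SE 0.24, adjusted p = 0.259 by edgeR). It was 0.34 for Sfrp4 (SE 0.12, adjusted p = 0.276 by edgeR) and 0.45 for Sfrp1 (SE 0.24, adjusted p = 0.419 by edgeR). For Fzd5 it was -0.64 (SE 0.19, adjusted p = 0.218 by edgeR). Fold changes and SE of the inhibitors Sfrp2, Dkk2, Sfrp4 and Sfrp1 were both smaller than without the covariate. The adjusted p was lower than without it for Sfrp2, Dkk2 and Sfrp4, and higher for Sfrp1. Endothelial markers, 13 genes, were at a sum of 1605 to 1744 CPM in WT and 1396 to 1506 CPM in SAKI mice, and those of smooth muscle and pericytes, 11 genes, at 1035 to 1208 and 799 to 1007 CPM, so these 2 sums were lower in every SAKI mouse, as were the CPM of the receptors Fzd1, Fzd5, Fzd7 and Lrp5. By gene, 6 of the 13 and 2 of the 11 lay lower without overlap, and Tek (0.40), Emcn (0.16) and Abcc9 (0.12) were among those with a log2 fold change above 0. Lower values were not particular to vessel markers. Of the 15 markers of mature adipocytes, 14 were estimated lower in SAKI mice and 1 higher, at a median log2 fold change of -0.33. For 5 of them every SAKI mouse lay under all WT mice. Their sum overlapped, at 34811 to 45405 CPM in WT and 31765 to 36624 CPM in SAKI mice. The part of vessel cells or of adipocytes in the receptor values was not tested. Skeletal muscle markers, 9 genes, varied from 445 to 6758 CPM, and the groups overlapped. Of the lymph node stroma list Ccl21a and Ccl19 were at 0, of the mesothelium list Wt1 and Muc16, and of the epithelial list Krt15.

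The promoters of 4 members are shown so that 2 patterns over the mice can be set beside their sequence. Sfrp2, Dkk2 and Wnt10b were low in WT 1 and WT 3. Fzd5 was high in WT 1 and WT 3 and lowest in the SAKI mice, with WT 2 close to them. Each sequence is the 250 bases before the RefSeq start of transcription in GRCm38.p6, 5′ to 3′ on the strand of the gene, with capitals where a motif was found on either strand. The motifs searched were the GC box, spelled GGGCGG, the TATA box, spelled TATAAA, the CCAAT box, spelled as named, and the core of TCF/LEF sites, spelled CTTTGAT. They lie at chr3:83766071-83766320 (plus strand) for Sfrp2, chr3:132085042-132085291 (plus) for Dkk2, chr15:98778151-98778400 (minus) for Wnt10b and chr1:64737751-64738000 (minus) for Fzd5.
Sfrp2: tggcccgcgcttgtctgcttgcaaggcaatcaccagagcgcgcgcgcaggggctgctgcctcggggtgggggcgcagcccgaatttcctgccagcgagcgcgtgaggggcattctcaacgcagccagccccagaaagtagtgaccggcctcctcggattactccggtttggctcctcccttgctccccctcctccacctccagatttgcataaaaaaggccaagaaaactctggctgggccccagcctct
Dkk2: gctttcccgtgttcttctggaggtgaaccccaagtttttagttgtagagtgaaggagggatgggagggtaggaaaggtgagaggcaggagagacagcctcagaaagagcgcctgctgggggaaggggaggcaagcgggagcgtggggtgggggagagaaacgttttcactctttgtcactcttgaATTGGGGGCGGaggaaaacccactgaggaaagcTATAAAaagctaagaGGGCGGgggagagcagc
Wnt10b: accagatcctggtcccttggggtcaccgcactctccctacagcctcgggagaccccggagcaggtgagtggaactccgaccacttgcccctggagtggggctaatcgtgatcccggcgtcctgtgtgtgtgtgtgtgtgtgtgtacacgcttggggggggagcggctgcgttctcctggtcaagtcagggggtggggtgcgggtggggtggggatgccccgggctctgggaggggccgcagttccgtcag
Fzd5: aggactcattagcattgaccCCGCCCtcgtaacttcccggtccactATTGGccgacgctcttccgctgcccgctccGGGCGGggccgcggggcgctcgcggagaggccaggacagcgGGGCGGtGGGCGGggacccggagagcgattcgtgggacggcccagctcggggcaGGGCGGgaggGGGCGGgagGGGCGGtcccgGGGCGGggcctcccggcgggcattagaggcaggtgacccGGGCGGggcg

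The Dkk2 promoter holds a TATA box that starts 32 bases before the start of transcription, with 2 GC boxes, and 1 CCAAT box on the other strand directly before the first GC box. The Fzd5 promoter has no TATA box but 9 GC boxes and 1 CCAAT box, with 76.4% G and C. Those of Sfrp2 (63.6% G and C) and Wnt10b (66.8%) hold none of the 4 motifs. RefSeq promoters were found for 27 of the 41 members, 30 promoters in all. A GC box was in 22 of the 30 (73.3%), against 32.7% of 32851 promoters in the table, a TATA box in 5 (16.7%, against 12.4%) and a CCAAT box in 10 (33.3%, against 33.8%). The TCF/LEF core was in 2 (6.67%, against 3.21%), those of Wnt11 and Wnt5b. A match is a string of letters, not a measured binding site.

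Downstream and beside the receptors, the 90 other genes of the pathway gave no call either. Of these, 83 were tested and 0 passed the adjusted p of 0.05 (edgeR), 6 being higher and 14 lower at an unadjusted p under 0.05 (8.36% and 9.99% of all genes), and 6 higher and 13 lower without overlap (13% and 12.4% of all genes). DESeq2 called 5 of the pathway genes, where it called 3.02% of the 22518 genes with a count. That wider set includes genes too low for the edgeR test, so the share is not a like one. Without WT 2, edgeR called 16 of the pathway genes (16.6% of all genes). The median log2 fold change of the tested pathway genes was 0.01. Ligand secretion genes such as the carrier Wls (64.6 ± 6.40 CPM in WT, 58.9 ± 1.18 in SAKI, SD, n = 3 each) and the acyltransferase Porcn (8.62 ± 3.03 and 9.24 ± 1.35 CPM) overlapped between the groups, and 0 of 4 tested in that role were below an unadjusted p of 0.05. Of the R-spondin receptors, Lgr4 read 64.2, 36.9 and 133 CPM in WT and 36.4, 33.0 and 27.9 CPM in SAKI mice (log2 fold change -1.27, SE 0.43, adjusted p = 0.217 by edgeR).

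Inside the cell, Ctnnb1, which encodes beta-catenin, read 323, 307 and 374 CPM in WT and 263, 252 and 271 CPM in SAKI mice, and no values overlapped (log2 fold change -0.35, SE 0.12, adjusted p = 0.211 by edgeR). Its inhibitor Ctnnbip1 was at 32.2 ± 6.25 and 21.7 ± 3.08 CPM (log2 fold change -0.57), and Dvl1, which relays the signal from Frizzled, at 78.4 ± 8.89 and 58.3 ± 1.60 CPM (log2 fold change -0.43, adjusted p = 0.180 by edgeR). Lef1, a partner of beta-catenin on DNA, was at 22.8 ± 5.73 CPM in WT and 44.8 ± 5.52 CPM in SAKI mice (log2 fold change 0.97, SE 0.20, adjusted p = 0.153 by edgeR), and Tcf7, named for its values, at 97.7 ± 26.7 and 144 ± 7.10 CPM. Both are also T cell genes, and 11 T cell markers summed to 275 to 437 CPM in WT and 528 to 611 CPM in SAKI mice, with 10 of 11 higher at an unadjusted p under 0.05. The share of Lef1 reads that T cells gave was not tested. Of the same TCF/LEF family, Tcf7l2 lay lower in every SAKI mouse, at 19.7 ± 4.52 CPM in WT and 15.3 ± 1.17 CPM in SAKI mice (log2 fold change -0.36). Tcf7l1 overlapped between the groups (log2 fold change -0.08). Axin2, the most used readout of canonical signaling, was at 10.2 ± 5.53 CPM in WT and 12.0 ± 0.354 CPM in SAKI mice (SD, n = 3 each, log2 fold change 0.23, adjusted p = 0.784 by edgeR).

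Among target genes, Twist1 was at 30.1 ± 5.60 CPM in WT and 18.5 ± 1.64 CPM in SAKI mice (log2 fold change -0.70, adjusted p = 0.166 by edgeR). Fosl1, an AP-1 gene that other signals also induce, read 1.29, 2.79 and 11.9 CPM in WT and 0.130, 0.129 and 0.103 CPM in SAKI mice (adjusted p = 0.148 by edgeR). In the planar polarity and calcium branch, Rac1 read 351, 83.9 and 352 CPM in WT and 73.0, 79.9 and 81.3 CPM in SAKI mice, with WT 2 beside the SAKI mice again (log2 fold change -1.75, adjusted p = 0.187 by edgeR). Nfatc3 was at 95.8 ± 6.55 and 121 ± 1.64 CPM, and Celsr1 at 8.95 ± 2.02 and 14.2 ± 2.04 CPM (SD, n = 3 each). The co-receptors Ryk (65.3 ± 2.86 and 52.6 ± 2.16 CPM) and Gpc4 (31.3 ± 8.50 and 21.9 ± 1.78 CPM), and the kinase Csnk1e (56.2 ± 4.07 and 46.2 ± 0.671 CPM), lay lower in every SAKI mouse.

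**Figure D5:**
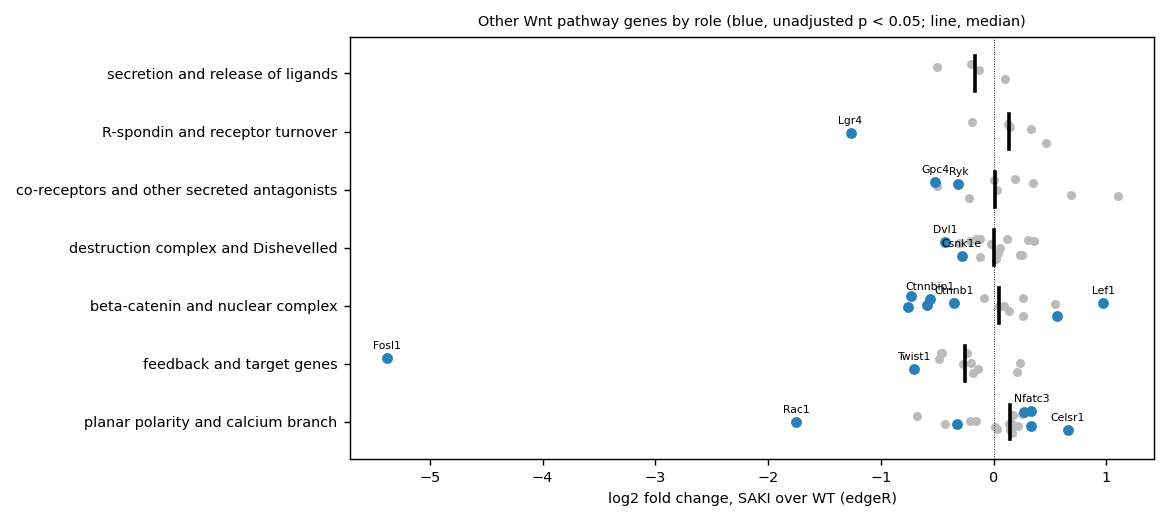
Fitted log2 fold change of SAKI over WT for the 83 tested genes of 7 other roles of the pathway. Points are genes (blue at an unadjusted p under 0.05, named where the rule for named genes applies), and black lines are medians. No gene passed the adjusted p of 0.05.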

How the data were processed

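RNA-seq was performed on IngWAT of 3 WT and 3 SAKI mice, grouped by the sample labels. What the authors deposited are raw counts by gene, 1 file a library, and FPKM values of all libraries in 1 table. The gene length implied by count and FPKM was constant over the libraries within 1% for 13186 of 13186 genes checked, so the FPKM values the authors deposited rest on the same counts. According to the submitters' processing notes the build was GRCm38, and Bowtie2 2.2.6, StringTie 1.3.0 and HISAT2 2.0.4 are listed there with no role. How the counting was done (tool, strand setting, filters) is not given in the sources used here. Where genes overlap, as 9 of the 41 members do, their reads therefore cannot be told apart. No batch is recorded in the labels. Within each group, no pair of libraries was close enough to be 1 sample deposited again. Pairs of a WT and a SAKI library were not compared in this way. The replicates are labelled as separate mice.

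Counts were tested with edgeR 4.0.16 in R 4.3.3 (filterByExpr at a count of 10 and total of 15, TMM, genotype alone, quasi-likelihood test), with Benjamini-Hochberg adjustment over all 15400 genes tested and a threshold of 0.05. The common biological coefficient of variation was 23.3%. Steps were tested on simulated data. With 3 mice against 3, an exact permutation test of a single gene cannot go below p = 0.1. Levels were compared between genes in FPKM only. The 14 alternatives were RLE scaling, DESeq2 1.42.0, no filter on low counts, the replicate number as a block, a progenitor marker score as a covariate, limma 3.58.1 with a trend on log2(FPKM + 1), keeping genes that reach 1 FPKM in 3 libraries, the same with a pseudocount of 0.1 or no filter, and each library left out in turn.

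Members with a mean of at least 1 CPM are named with values, in every mouse for those without overlap, at an unadjusted p under 0.05, or among the 2 highest of their role by FPKM. Of the 90 other pathway genes, up to 3 per role at an unadjusted p under 0.05 are named. Wnt10b, Wnt11, Sfrp1, Sfrp4 and Dkk2 are given mouse by mouse, and Wls, Porcn, Tcf7, Tcf7l1, Tcf7l2 and Axin2 are named, after their values were seen. The members, gene lists and marker lists were chosen with earlier results of these data known. All 90 pathway symbols and 129 of 130 marker symbols were found. Positions are those of the files in GRCm38, and all 41 members were found in GENCODE M21. Promoters are from RefSeq for GRCm38.p6. Markers of B cells summed to 523 to 922 CPM in WT and 811 to 934 CPM in SAKI mice, those of Schwann cells and nerve to 286 to 469 and 467 to 587 CPM, those of lymph node stroma to 151 to 294 and 315 to 358 CPM, those of epithelium to 12.9 to 27.5 and 10.7 to 14.0 CPM, and those of mesothelium to 4.09 to 8.84 and 2.93 to 3.56 CPM.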

Additional observations from a re-analysis of the deposited data

How the results depend on the processing

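With each library left out in turn, the number of members at an adjusted p under 0.05 ranged from 0 to 9, at an unadjusted p under 0.05 from 1 to 12, without overlap from 5 to 17, and the median log2 fold change of the tested members from -0.21 to 0.15, and the number of other pathway genes called ranged from 0 to 16. The highest counts came without WT 2. DESeq2 called 1 member and 5 other pathway genes. With limma on FPKM values (pseudocount 1 or 0.1), 0 members were at an unadjusted p under 0.05 and 1, Lrp6, was without overlap, and Wnt6, Fzd5 and Frzb did not pass the FPKM filter there. With limma and no filter, 3 were at an unadjusted p under 0.05, all lower (Wnt6, Fzd5 and Wnt8b), and 4 were without overlap. Members with few reads enter that fit, such as Wnt8b with 33 reads in all libraries together. The shares of all genes in the limma fits are not given here, so these counts cannot be read against them. The progenitor score moved the median of the members to -0.21. Slc35d3 was called under every alternative, with log2 fold changes of 3.28 to 3.38 when libraries were left out. Of 344 values of the 26 named members, 313 kept their direction and side of the threshold, 10 kept their direction and passed it, and 21 reversed, in 8 genes, the other 18 genes never reversing. Wnt10b reversed with RLE scaling (-0.00563), DESeq2 (-0.00945) and the progenitor score (-0.37), which also reversed Wnt5a (-0.17), Fzd2 (-0.27) and Fzd3 (0.0154). Wnt2 reversed on FPKM values (0.0441 with a pseudocount of 1, with or without the filter, and 0.0759 with 0.1). Leaving out libraries gave ranges of -0.43 to 1.80 for Wnt10b, -1.01 to 0.17 for Fzd10, -0.23 to 0.35 for Wnt2, -0.11 to 0.10 for Fzd4, -0.13 to 0.78 for Wnt5a, -0.25 to 0.48 for Fzd2 and -0.23 to 0.43 for Wif1. The cause of these reversals was not tested.

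Deviations of same-numbered mice correlated at 0.01, 0.02 and 0.10, and those of other pairs at -0.21 to 0.16. Not every mouse correlated best with its own number. With so few mice in a group, these values cannot settle whether the replicate numbers pair the mice. With the replicate number as a block, 0 members were called, and Wnt2 reversed (0.0561). Of the roles, the ligands had the most members too low to test, 10 of 19. Whether more depth would reach them was not tested.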
